A study of Mus musculus with 12 samples.

Results

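Expression of 6 MS4A genes and of the Tmem176 pair was followed in bone marrow-derived macrophages (BMDMs), 8 genes of the 48526 in the count table. The genes were Ms4a4a, Ms4a4c, Ms4a6b, Ms4a6c, Ms4a6d, Ms4a7, Tmem176a and Tmem176b. They were chosen as named symbols from earlier results of these same libraries, and Tmem176b also stands in the study's own list of genes that differed between genotypes after LPS. The contrast behind that choice is not stated in the sources used here. KO against WT after LPS, and the difference between the LPS responses, were taken to be the ones used and are given for these genes as a description, with no test. The adjusted p-values of the other 3 comparisons come from the fit over all genes, and since the choice may have drawn on those comparisons too, they are not independent of it. All 8 passed the filter on low counts.

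BMDMs are macrophages grown in culture from mouse bone marrow. KO cells came from mice homozygous for a deletion of HSS9, the enhancer upstream of Tnf that the study also calls TNF-9, and WT cells carried the intact enhancer (HSS9+/+). The labels describe the WT mice as littermate controls, whereas the study's methods describe purchased C57BL/6 mice and KO animals kept as homozygous breeding pairs, so deletion and colony cannot be told apart. Only young adult males were used, per the methods. Cells were left untreated in PBS (UT) or stimulated for 6 h with lipopolysaccharide (LPS), which gave 4 groups (WT UT, KO UT, WT LPS, KO LPS) of 3 libraries each. The sources used here do not say whether the 3 libraries of a group came from 3 mice, so p-values measure only the spread between these libraries.

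MS4A proteins cross the membrane several times and sit at the cell surface or in intracellular vesicles, where they modulate the signalling of immune receptors. The family includes CD20 of B cells (Ms4a1) and the beta chain of the high-affinity IgE receptor (Ms4a2), and in mice it holds a group of closely related Ms4a4 and Ms4a6 copies used by myeloid and T cells. Tmem176a and Tmem176b encode relatives of the family that act as cation channels of internal membranes, are typical of macrophages and dendritic cells, and have been linked to restraint of the NLRP3 inflammasome.

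In GRCm38 coordinates of the GENCODE vM21 annotation, Tmem176a lay on the plus strand at chr6:48840919-48847071 and Tmem176b on the minus strand at chr6:48833818-48841496. The genes overlap by 578 bases, head to head. The 6 MS4A genes lay within 283.8 kb of chromosome 19, from Ms4a7 (chr19:11321039-11336146) through Ms4a4a (chr19:11375523-11392790), Ms4a4c (chr19:11404770-11427246), Ms4a6c (chr19:11469366-11482192) and Ms4a6b (chr19:11516512-11531256) to Ms4a6d (chr19:11586604-11604849). Neither locus is on chromosome 17, which carries Tnf.

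Promoter windows from RefSeq (GRCm38.p6, 250 bases before a gene's start site to 50 after it) were found for 7 of the 8 genes, the exception being Ms4a6d. Where the table held several windows (2 for Tmem176a, 3 for Tmem176b, 2 for Ms4a7), the one with its start site nearest the GENCODE gene start was used and the others were not searched. The start sites used lay 2891 bases from the GENCODE start for Ms4a4c, 2047 for Ms4a6b and 564 for Tmem176a. The start sites used for Tmem176a and Tmem176b were 109 bases apart and their windows shared 208 bases, so the pair is shown once, as the Tmem176a window with the shared bases in capitals. The windows of Ms4a6b and Ms4a6c are shown because they held the same pair of motif matches, and that of Ms4a7 because its levels moved unlike those of the other MS4A genes. In the MS4A windows capitals mark motif matches.
Tmem176a, chr6:48841233-48841532, plus strand: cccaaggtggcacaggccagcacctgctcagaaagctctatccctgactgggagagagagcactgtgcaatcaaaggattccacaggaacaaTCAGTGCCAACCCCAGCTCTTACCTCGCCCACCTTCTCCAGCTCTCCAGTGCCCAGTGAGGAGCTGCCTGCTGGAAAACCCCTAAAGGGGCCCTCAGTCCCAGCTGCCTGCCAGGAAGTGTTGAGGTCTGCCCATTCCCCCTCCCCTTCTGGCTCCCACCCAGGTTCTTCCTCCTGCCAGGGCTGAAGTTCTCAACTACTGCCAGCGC
Ms4a6b, chr19:11518309-11518608, plus strand: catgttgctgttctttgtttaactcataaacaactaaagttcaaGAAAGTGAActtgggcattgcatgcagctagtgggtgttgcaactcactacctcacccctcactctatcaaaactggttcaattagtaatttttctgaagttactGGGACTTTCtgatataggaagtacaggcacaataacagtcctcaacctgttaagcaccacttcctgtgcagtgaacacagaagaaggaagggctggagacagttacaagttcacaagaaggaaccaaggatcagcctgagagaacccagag
Ms4a6c, chr19:11469118-11469417, plus strand: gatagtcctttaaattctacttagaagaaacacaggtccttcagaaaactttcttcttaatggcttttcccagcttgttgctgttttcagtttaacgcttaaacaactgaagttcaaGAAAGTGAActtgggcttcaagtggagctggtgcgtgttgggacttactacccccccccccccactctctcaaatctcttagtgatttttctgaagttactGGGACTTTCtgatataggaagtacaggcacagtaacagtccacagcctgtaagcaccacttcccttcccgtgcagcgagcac
Ms4a7, chr19:11336097-11336396, minus strand: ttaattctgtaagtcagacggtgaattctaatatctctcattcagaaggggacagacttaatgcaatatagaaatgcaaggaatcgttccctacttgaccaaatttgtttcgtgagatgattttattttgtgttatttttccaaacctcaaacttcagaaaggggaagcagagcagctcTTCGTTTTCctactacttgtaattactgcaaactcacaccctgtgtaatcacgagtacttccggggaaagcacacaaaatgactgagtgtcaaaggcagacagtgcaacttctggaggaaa

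Both strands of each window were searched for 5 motifs: GAAANNGAA (half-sites of interferon regulatory factors, IRF), GGGANTTTC (NF-kappaB), TGANTCA (AP-1), GAGGAAGT (PU.1) and TTGCNNAA (C/EBP). Ms4a6b and Ms4a6c each held the IRF match GAAAGTGAA and the NF-kappaB match GGGACTTTC. The latter lay inside the longest run of letters that both windows shared, 48 bases. Ms4a7 held an IRF match 71 bases before its start site, written TTCGTTTTC on the strand shown. Ms4a4a held the NF-kappaB match GGGATTTTC, and the single windows searched for Tmem176a, Tmem176b and Ms4a4c held none of the 5 sets of letters. Of 32851 mouse promoter windows of this length, 8.56% held the IRF motif, 1.11% NF-kappaB, 7.81% AP-1, 3.2% PU.1 and 10.8% C/EBP. A match is a description of letters, and no match overlapped another.

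Library totals ran from 26154533 to 36423921 counts. Tnf itself had 632, 679 and 761 counts in WT UT and 329, 358 and 360 in KO UT, and 22172, 20154 and 19902 in WT LPS against 11003, 11974 and 11608 in KO LPS, so the KO libraries were lower in both conditions. Small structured RNAs took up a share of the counts that was 3.00 to 3.25% in WT UT, 6.64 to 7.98% in KO UT, 4.04 to 6.89% in WT LPS and 3.23 to 3.43% in KO LPS. This share was higher in KO than in WT in untreated cells and lower in KO after LPS. Its part in the results was not tested. On protein-coding genes alone, KO UT against WT UT gave log2 fold changes of 1.25 (Tmem176b), 1.03 (Tmem176a), 0.75 (Ms4a7) and -1.11 (Ms4a4c). Those on all genes were 1.24, 1.02, 0.74 and -1.12. After LPS the KO against WT values were 1.02 for Tmem176b and 0.15 for Ms4a6b, against 1.06 and 0.18 on all genes. This refit does not test what part the share had in the results.

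Macrophage markers (Adgre1, Csf1r, Cd68, Mertk, Fcgr1, Itgam, Lyz2) were all counted, and their summed level was 28398 to 29435 CPM in WT UT and 32580.1 to 33679 CPM in KO UT. CPM is a gene's count divided by the library's total in units of 1000000 counts, with the total scaled by edgeR's TMM. After LPS the sum was 24434 to 25939 CPM in WT and 27051 to 28719 CPM in KO, so the sum was higher in KO in both conditions, without overlap. Lyz2 made up most of it, at a mean of 23453 CPM in WT UT and 27341 CPM in KO UT. Of the other group means in untreated cells, those of Adgre1 (2031 and 2308 CPM), Cd68 (544 and 717), Mertk (71.2 and 83.9) and Itgam (47.8 and 53.1) were higher in KO, and those of Csf1r (2448 and 2242) and Fcgr1 (267 and 264) were not. After LPS the means of all 7 were higher in KO. Dendritic cell markers, of interest because dendritic cells use the Tmem176 pair, summed to 23.1 to 26.2 CPM in WT UT and 23.4 to 25.3 CPM in KO UT. After LPS they summed to 29.0 to 32.1 CPM in WT and 33.9 to 35.3 CPM in KO. Monocyte markers (4 of 4 counted) summed to 218 to 240.5 CPM in WT UT, 160.3 to 179.7 CPM in KO UT, 1402 to 1575 CPM in WT LPS and 1155 to 1324 CPM in KO LPS. Neutrophil markers (5 of 6 counted, Ly6g at 0 throughout) summed to 18.4 to 19.6 CPM in WT UT, 39.9 to 45.4 CPM in KO UT, 46.7 to 75.1 CPM in WT LPS and 63.0 to 73.1 CPM in KO LPS, most of it S100a8 and S100a9. In untreated KO cells the summed neutrophil markers were thus higher and the summed monocyte markers lower, and the part of these lists in the results was not tested. B cell, T cell and mast cell lists each summed to at most 8.33 CPM in every library. Stromal markers (5 of 6 counted, Thy1 at no more than 3 counts) summed to 1.93 to 4.32 CPM in WT LPS and 6.91 to 8.42 CPM in KO LPS, and this difference was not tested either.

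Levels per kilobase of exon (CPM per kb, the scale used whenever 1 gene is set against another) placed Ms4a6c first in WT UT, at 163 ± 3.53 (SD, n = 3). It was followed by Ms4a7 at 124 ± 1.18, Ms4a6d at 112 ± 4.59, Ms4a4a at 67.2 ± 0.599, Ms4a4c at 45.4 ± 0.825, Ms4a6b at 43.1 ± 1.12, Tmem176b at 15.5 ± 0.714 and Tmem176a at 2.64 ± 0.247. No neighbours in that order overlapped between libraries. In KO UT the order was led by Ms4a7 at 208 ± 3.75, and Tmem176b at 36.6 ± 0.555 stood above Ms4a6b at 31.1 ± 0.883 and Ms4a4c at 20.9 ± 1.24. LPS moved Ms4a4c to the top of WT cells at 1168 ± 30.5, ahead of Ms4a6d at 1063 ± 37.1, while in KO cells Ms4a6d led at 1338 ± 67.5 ahead of Ms4a4c at 1133 ± 33.3. Tmem176a was last in all 4 groups, and Ms4a7 and Ms4a6b in WT LPS were the only neighbours whose libraries overlapped.

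**Figure D1:**
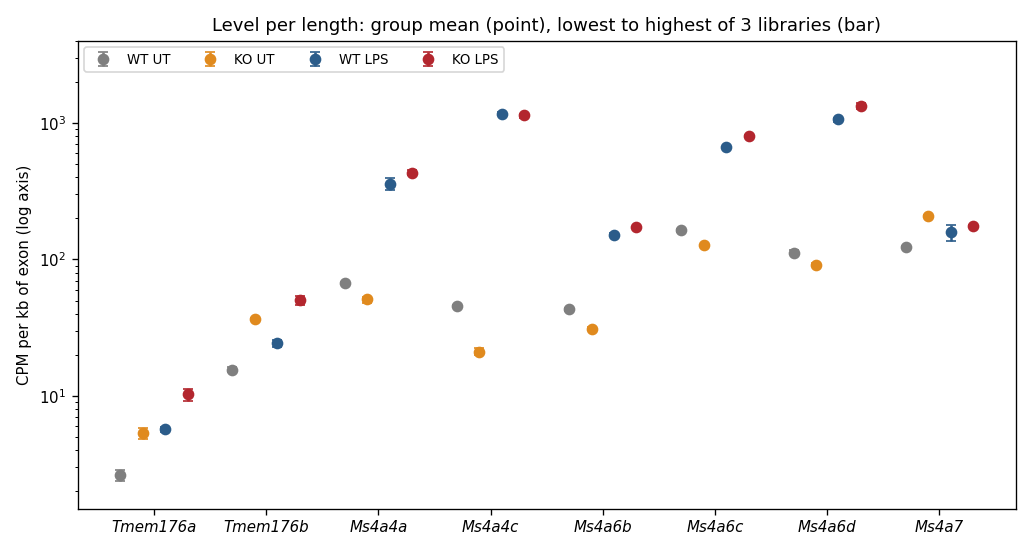
Level of each gene per kilobase of annotated exon (CPM per kb, log axis) in the 4 groups, with points for the mean of 3 libraries and bars from the lowest to the highest. Ms4a4c went from 45.4 in WT UT to 1168 in WT LPS, and Ms4a7 stayed between 124 and 208 in all group means.

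The length is that of all annotated exons of a gene together, so a gene with long unused exons reads low on this scale. The counting program was run with a strand setting that is not given in the sources used here. Reads from the 578 shared bases of Tmem176a and Tmem176b, and from the antisense genes annotated over Ms4a4c, Ms4a6b and Ms4a6c, may therefore have been split or dropped. Of all 50-base windows of a gene's transcripts, 8.19% of Ms4a4c occurred letter for letter in another gene (mostly Ms4a4b), as did 10.5% of Ms4a6c, 3.57% of Ms4a6b, 2.54% of Ms4a6d and 0.306% of Ms4a7. None did for Tmem176a, Tmem176b or Ms4a4a.

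The first comparison set untreated KO macrophages against untreated WT macrophages. Tmem176a and Tmem176b rose in KO by 2.03-fold and 2.36-fold, Ms4a7 rose by 1.67-fold, and the Ms4a4 and Ms4a6 genes fell, Ms4a4c furthest. All 8 genes had KO UT libraries that did not overlap those of WT UT, which held for 40.8% of the 15523 genes tested. All 8 also passed edgeR's quasi-likelihood test at an adjusted p under 0.05 (23.8% of genes tested), 3 of them higher (14.1%) and 5 lower (9.69%). With the further requirement of a log2 fold change beyond 1 in size, 3 of 8 were called (1.82%), Tmem176a and Tmem176b higher (1.02%) and Ms4a4c lower (0.799%). Since these are bulk libraries, fewer cells of a type and less RNA per cell cannot be told apart.

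Tmem176b, the channel subunit tied to inflammasome restraint, was at 35.5, 36.1 and 38.7 CPM in WT UT and at 87.9, 87.4 and 85.4 CPM in KO UT. Every KO UT library was far above every WT UT library. The fold was 2.36 (log2 fold change 1.24, SE 0.0645, edgeR adjusted p = 1.73e-11). Tmem176a, its partner, was at 10.0, 9.13 and 11.0 CPM in WT UT and at 21.0, 22.1 and 18.3 CPM in KO UT, again with no overlap. Its fold was 2.03 (log2 fold change 1.02, SE 0.0923, edgeR adjusted p = 8.89e-08), which is at the edge of the fold threshold. The log2 fold change was 0.95 with RLE scaling or DESeq2, 1.00 with upper-quartile scaling and 0.96 without WT UT replicate 2 or without KO UT replicate 2, and the call was lost in each of these because of size, with adjusted p at most 2.77e-06 over 14 alternatives.

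The level of Tmem176b per kilobase was 5.9 ± 0.4 times that of Tmem176a in WT UT (SD, n = 3) and 6.86 ± 0.58 times in KO UT. The single-library ratios of these groups touched, at 5.65 to 6.36 against 6.36 to 7.5. After LPS the ratio was 4.28 ± 0.299 in WT and 4.96 ± 0.555 in KO. The ratios after LPS lay below those of untreated cells in each genotype, with no overlap.

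Ms4a7, a surface protein typical of mature tissue macrophages, was at 551, 549.6 and 559 CPM in WT UT and 922, 943 and 910.3 CPM in KO UT. Every KO UT library was well above every WT UT library. Its log2 fold change was 0.74 (SE 0.0656, edgeR adjusted p = 6.36e-08), a rise of 1.67-fold that missed the fold threshold.

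Ms4a4c, a family member known to respond to interferon, moved the other way. It was at 78.6, 78.6 and 81.1 CPM in WT UT and at 34.9, 35.9 and 39.0 CPM in KO UT. The highest KO UT library was far below the lowest WT UT library. The log2 fold change was -1.12 (SE 0.053, edgeR adjusted p = 3.89e-12), or 2.17-fold lower in KO.

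The 4 remaining genes fell by less than the fold threshold. Ms4a6b, studied mostly in T cells, was at 188, 195 and 197 CPM in WT UT and 136, 139.6 and 144 CPM in KO UT (log2 fold change -0.47, SE 0.0489, edgeR adjusted p = 6.04e-07). Ms4a4a, known as a partner of the fungal receptor Dectin-1 (Clec7a), was at 56.7, 55.8 and 56.1 CPM against 40.1, 43.2 and 44.4 CPM (log2 fold change -0.40, SE 0.0694, edgeR adjusted p = 1.81e-04). Ms4a6c went from 332, 327 and 342 CPM to 259, 260.2 and 261 CPM (log2 fold change -0.36, SE 0.0444, edgeR adjusted p = 4.66e-06), and Ms4a6d, linked to restraint of IL-1 beta in macrophages, from 189.5, 191 and 204 CPM to 154, 159 and 164 CPM (log2 fold change -0.29, SE 0.0521, edgeR adjusted p = 2.36e-04). In each of the 4 the highest KO UT library stayed below the lowest WT UT library. Ms4a4c was set apart from its relatives in size, with a 95% interval of -1.23 to -1.01 against -0.57 to -0.37 for Ms4a6b.

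**Figure D2:**
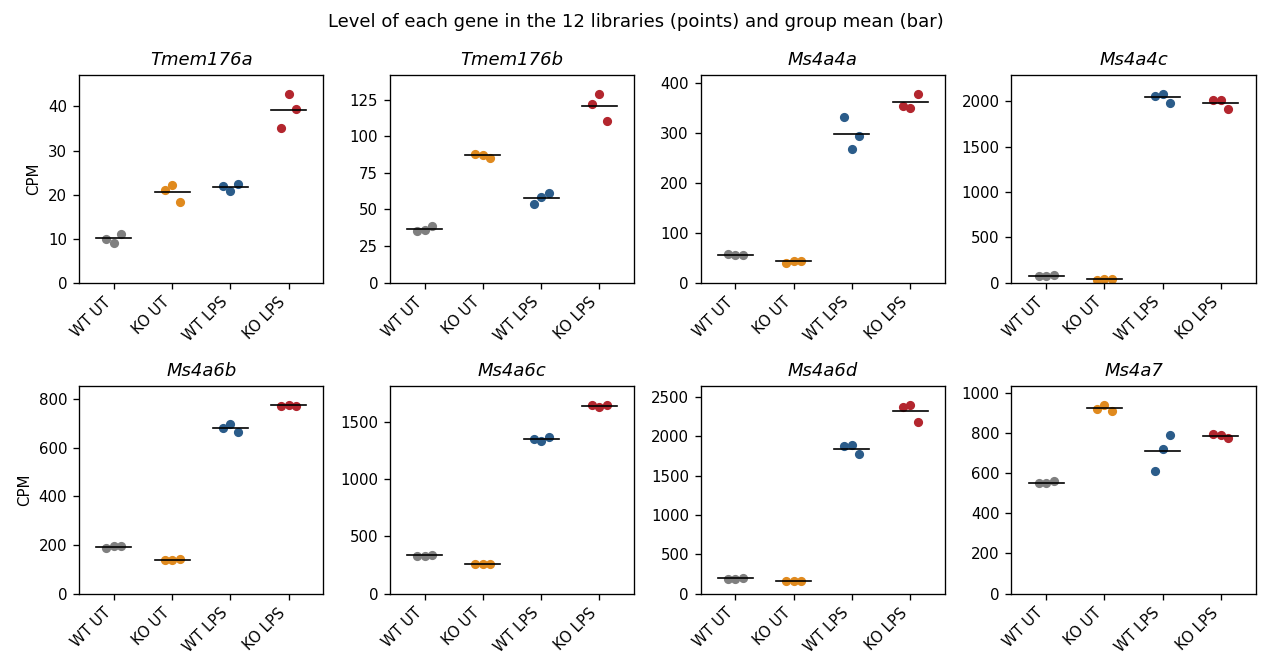
CPM of each gene in the 12 libraries, 1 panel a gene, on linear axes that start at 0, with points for libraries and a bar for the mean of 3. The Tmem176 panels step up from WT to KO in both conditions, the Ms4a4 and Ms4a6 panels are dominated by LPS, and Ms4a7 is highest in KO UT at 910.3 to 943 CPM.

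The second comparison was the response of WT cells to LPS. All 8 genes rose at an adjusted p under 0.05, as did 38.0% of genes tested, and 6 of 8 were called higher by more than 1 on the log2 scale, as were 19.1%. Ms4a4c rose most, from 78.6 to 81.1 CPM to 2065, 2086 and 1985 CPM. That is 25.7-fold (log2 fold change 4.69, SE 0.0583, edgeR adjusted p = 3.31e-24). Ms4a6d followed, at 1873, 1890.2 and 1771 CPM after LPS, or 9.47-fold (log2 fold change 3.24, SE 0.0561, edgeR adjusted p = 4.72e-22). For these genes and the next 3, every LPS library lay far above every UT library.

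Ms4a4a reached 331, 268 and 293 CPM (log2 fold change 2.40, SE 0.0703), Ms4a6c 1351, 1341 and 1372 CPM (2.02, SE 0.0458) and Ms4a6b 682, 696 and 664 CPM (1.82, SE 0.0498). The largest adjusted p of these 3 was 4.39e-18 in edgeR. Tmem176a reached 22.0, 20.8 and 22.4 CPM, with a log2 fold change of 1.11 (SE 0.0948, edgeR adjusted p = 7.20e-10). With upper-quartile scaling, which moved the median log2 fold change of all genes from 0.05 to -0.14, that value was 0.93 and the call was lost.

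Tmem176b and Ms4a7 rose without reaching the fold threshold. Tmem176b was at 53.7, 58.2 and 61.5 CPM in WT LPS, a log2 fold change of 0.65 (SE 0.0659, edgeR adjusted p = 1.18e-08). Ms4a7 was at 612, 723 and 791 CPM in WT LPS, a log2 fold change of 0.36 (SE 0.0654, edgeR adjusted p = 4.75e-05, at most 0.0304 over 14 alternatives). Its WT LPS libraries spread more widely than any other group of this gene, and the small structured RNA share of the same 3 libraries was 4.04%, 5.36% and 6.89%. The part of that share in the spread was not tested.

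The third comparison was the response of KO cells to LPS. Again all 8 genes passed the adjusted p, as did 72.8% of genes tested, but 7 were higher and Ms4a7 was lower. Of the 8, 5 were called higher (17.7% of genes tested), all of them Ms4a4 or Ms4a6 genes. Ms4a4c went from 34.9 to 39.0 CPM to 2019.6, 2014 and 1916 CPM, or 54.2-fold (log2 fold change 5.76, SE 0.0618, edgeR adjusted p = 3.76e-25). Ms4a6d reached 2371, 2405 and 2187 CPM, or 14.6-fold (log2 fold change 3.87, SE 0.0578, edgeR adjusted p = 4.77e-23). Ms4a4c and Ms4a6d thus led the response in both genotypes.

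Ms4a4a reached 354, 349 and 378 CPM (log2 fold change 3.08, SE 0.0727), Ms4a6c 1654, 1634 and 1657 CPM (2.66, SE 0.0469) and Ms4a6b 770.4, 777 and 771 CPM (2.47, SE 0.0511), with edgeR adjusted p at most 9.21e-20. Tmem176a reached 35.1, 42.9 and 39.5 CPM, and its log2 fold change of 0.94 (SE 0.0875, edgeR adjusted p = 3.06e-09) stayed under the fold threshold. Without KO LPS replicate 1, its lowest library, the value was 1.01 and passed it. Tmem176b reached 122, 129 and 110.4 CPM (log2 fold change 0.47, SE 0.0628, edgeR adjusted p = 7.87e-07). Ms4a7 was the exception, at 796, 792 and 775 CPM after LPS and below every KO UT library (log2 fold change -0.23, SE 0.0653, edgeR adjusted p = 0.00318, at most 0.0138 over 14 alternatives). With upper-quartile scaling the log2 fold changes of Ms4a7 after LPS were 0.18 in WT and -0.42 in KO.

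**Figure D3:**
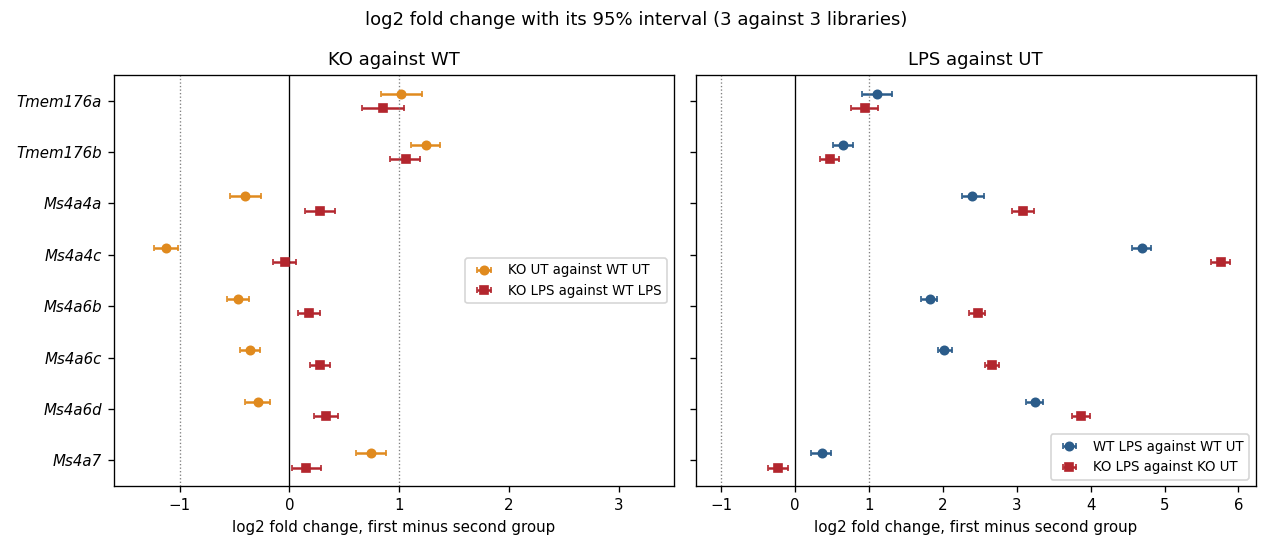
log2 fold changes with 95% intervals for KO against WT (left) and LPS against UT (right), 3 libraries against 3, with dotted lines at the fold threshold of 1 in size. The 5 Ms4a4 and Ms4a6 genes sit left of 0 in untreated cells, from -1.12 to -0.29, and between -0.04 and 0.33 after LPS, while the Tmem176 pair stays right of 0 in both.

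After LPS, KO and WT were set side by side as a description. Tmem176b was at 53.7 to 61.5 CPM in WT LPS and 110.4 to 129 CPM in KO LPS, 2.08-fold higher in KO (log2 fold change 1.06, 95% interval 0.92 to 1.19). Tmem176a was at 20.8 to 22.4 CPM against 35.1 to 42.9 CPM, 1.8-fold higher (0.85, 0.66 to 1.04). The Tmem176 pair was thus higher in KO in both conditions by similar values, 1.24 and 1.06 for Tmem176b and 1.02 and 0.85 for Tmem176a on the log2 scale.

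The genes that were lower in untreated KO cells were no longer lower after LPS. Ms4a4c was at 1985 to 2086 CPM in WT LPS and 1916 to 2019.6 CPM in KO LPS, which overlapped (log2 fold change -0.04, 95% interval -0.15 to 0.06). The values were 0.33 (0.22 to 0.44) for Ms4a6d, 0.28 (0.14 to 0.42) for Ms4a4a, 0.28 (0.19 to 0.37) for Ms4a6c and 0.18 (0.08 to 0.28) for Ms4a6b. In each of these 4 the KO LPS libraries lay above the WT LPS libraries, and with the Tmem176 pair this made 6 of 8 genes higher without overlap, against 14.1% of genes tested. Ms4a7, at 775 to 796 CPM in KO LPS, overlapped WT LPS (0.15, 0.02 to 0.29).

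The difference between the LPS responses, KO minus WT on the log2 scale, was 1.07 for Ms4a4c (95% interval 0.92 to 1.22). It was 0.68 for Ms4a4a, 0.65 for Ms4a6b, 0.64 for Ms4a6c and 0.62 for Ms4a6d. These 5 genes rose more steeply in KO, from a lower untreated level, and reached a level that was higher than in WT for all but Ms4a4c. For Tmem176a and Tmem176b the difference was -0.17 (-0.44 to 0.10) and -0.18 (-0.37 to 0.01), and for Ms4a7 it was -0.59 (-0.78 to -0.40). Over 19 alternatives none of these 8 values changed sign.

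Among 13 other MS4A genes, 3 passed the filter on low counts. Ms4a14 was at 40.7 ± 1.66 CPM in WT UT and 40.0 ± 1.18 CPM in KO UT (SD, n = 3), and it rose by 0.27 in WT and 0.32 in KO on the log2 scale after LPS. Ms4a4b, a close relative of Ms4a4c with 23 to 133 counts a library, was called higher after LPS in WT, by 1.02 on the log2 scale (SE 0.242, edgeR adjusted p = 7.42e-04), and in KO, by 2.06 (SE 0.255, edgeR adjusted p = 2.54e-07). Since 135 of the 1747 Ms4a4c windows occur in Ms4a4b, its counts may hold reads of its more abundant relative. Ms4a8a was called higher in both genotypes too, on 15 counts or fewer in any library. None of the 3 was called between genotypes in either condition by edgeR or DESeq2, with 1 of 3 at an unadjusted p under 0.05 in untreated cells and 0 of 3 after LPS. Ms4a1, the B cell gene, had at most 4 counts, and Ms4a2, of mast cells, at most 7.

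Genes near the loci were examined to 500 kb on either side. Of 29 such genes around the Tmem176 pair, 10 passed the filter. In untreated cells 1 of the 10 was called between genotypes (1.82% of genes tested), Igf2bp3, which encodes an RNA-binding protein. Its KO minus WT value was -1.29 on the log2 scale (SE 0.215, edgeR adjusted p = 1.14e-04). At any fold it was the 1 lower gene at an adjusted p under 0.05 (9.69% of genes tested). Malsu1 was the 1 higher gene (14.1%), at 0.39 (SE 0.085, edgeR adjusted p = 0.00152). None of the 10 was called between genotypes after LPS by edgeR or DESeq2, and 4 had an unadjusted p under 0.05 in edgeR. Tra2a, a splicing regulator, was called higher after LPS in WT (1.98) and KO (1.82), Lrrc61 lower in WT (-1.26) and Krba1 lower in KO (-1.07).

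Of 27 genes beside the MS4A members, 10 passed the filter and none was called between genotypes in either condition by edgeR or DESeq2, with 6 of 10 at an unadjusted p under 0.05 in edgeR in each. At any fold, 2 were higher (14.1% of genes tested) and 3 lower (9.69%) in untreated KO cells at an adjusted p under 0.05. After LPS 2 were higher in KO at any fold, Prpf19 (0.33) and Tmem109 (0.26), and 0 lower (14.3% of genes tested in either direction). Slc15a3, a lysosomal peptide transporter, was called higher after LPS in WT (2.98) and KO (3.16), as were Ccdc86 (2.06 and 2.36) and Gm8369 (1.94 and 1.87). Tmem132a was called lower after LPS in KO (-1.14).

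The partner and pathway genes were 11, all tested: the microglial and macrophage receptor Trem2 with its adaptor Tyrobp and its ligand Apoe, Clec7a with its kinase Syk, and the inflammasome genes Nlrp3, Pycard, Casp1, Il1b, Il18 and Gsdmd. In untreated cells 1 of 11 was called between genotypes (1.82% of genes tested), Apoe, which encodes a lipid carrier. Apoe was at 1386 ± 38.2 CPM in WT UT and 3988 ± 359 CPM in KO UT (SD, n = 3), a log2 fold change of 1.53 (SE 0.0711, edgeR adjusted p = 3.31e-12). At any fold 5 of 11 were higher (14.1% of genes tested) and 2 lower (9.69%) at an adjusted p under 0.05. Among the 5 were Tyrobp (0.74, SE 0.102, edgeR adjusted p = 1.51e-05) and Trem2 (0.59, SE 0.0669, edgeR adjusted p = 1.81e-06).

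The inflammasome sensor Nlrp3 was 1 of the 2 that were lower (-0.22, SE 0.0625, edgeR adjusted p = 0.0125), and Syk was the other (-0.29, SE 0.0564, edgeR adjusted p = 5.38e-04). Pycard, the inflammasome adaptor, was among the 5 that were higher (0.48, SE 0.0823, edgeR adjusted p = 1.44e-04). Casp1 (-0.06), Il1b (-0.10), Il18 (-0.13) and Gsdmd (-0.15) did not pass. After LPS, Il1b was at 8448 ± 170 CPM in WT and 7965 ± 420 CPM in KO, and Nlrp3 at 681 ± 48.4 and 603 ± 34.2 CPM. Apoe was again the 1 gene of 11 called between genotypes (1.25% of genes tested). It was at 1208 ± 116 CPM in WT LPS and 2832 ± 217 CPM in KO LPS (log2 fold change 1.23, SE 0.0707). Apoe also stands in the study's own list of genes that differed between genotypes after LPS. Its call here is therefore not independent evidence. LPS itself gave 6 calls higher of 11 in each genotype (19.1% of genes tested in WT, 17.7% in KO), led by Il1b (7.83 in WT, 7.84 in KO), Il18 (3.18, 3.40), Nlrp3 (3.10, 3.14) and Casp1 (2.79, 2.85), and Clec7a was lower in both (-1.54, -1.66). Trem2 was called lower in KO (-1.12) and was at -0.57 in WT.

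Interferon-stimulated genes, 16 in the list, were followed for comparison with Ms4a4c. In untreated cells 16 of 16 were lower in KO at an adjusted p under 0.05, against 9.69% of genes tested, with a median log2 fold change of -0.81 beside 0.00 over all genes. The list was written with earlier results of these libraries known and is not independent evidence of its direction. Called lower were Ifi44 (-1.61, SE 0.07), Irf7 (-1.21, SE 0.0564), which encodes the transcription factor of the interferon response, and Oasl1 (-1.15, SE 0.0618). After LPS the median between genotypes was -0.10 beside -0.01 over all genes, with none called by edgeR (1.25% of genes tested) or DESeq2. At any fold 6 of 16 had an adjusted p under 0.05 (14.3% of genes tested), 5 of them lower in KO, and 9 had an unadjusted p under 0.05.

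LPS raised all 16 in both genotypes past the fold threshold (19.1% of genes tested in WT, 17.7% in KO), with a median of 4.43 in WT and 5.02 in KO. The response was larger in KO for 16 of 16 at an adjusted p under 0.05, against 7.32% of genes tested. Of the 16, 4 also passed the fold threshold. The share of genes tested that did so in either direction was 2.16%. These counts too rest on a list written with earlier results known. In the plot of KO against WT before and after LPS, Ms4a4c lies among these genes, and the 4 genes Ms4a4a, Ms4a6b, Ms4a6c and Ms4a6d lie to the upper right of most of them.

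**Figure D4:**
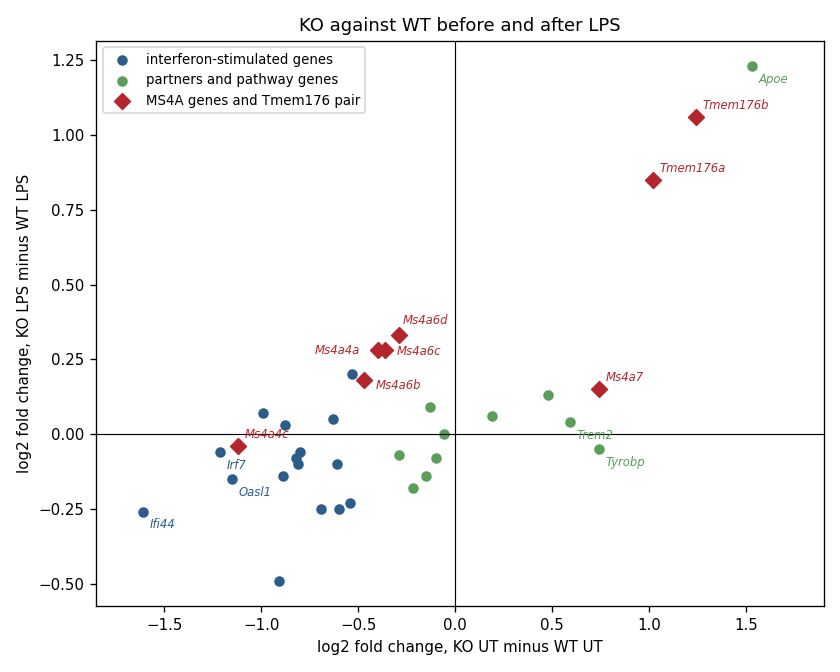
log2 fold change of KO against WT in untreated cells (horizontal) and after LPS (vertical), 1 point a gene, for the 8 genes (diamonds), 16 interferon-stimulated genes and 11 partner and pathway genes (circles). Ms4a4c (-1.12, -0.04) lies among the interferon-stimulated genes, Tmem176b (1.24, 1.06) and Tmem176a (1.02, 0.85) lie on the side of Apoe (1.53, 1.23), and Ms4a7 (0.74, 0.15) lies near Trem2 (0.59, 0.04) and Tyrobp (0.74, -0.05).

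Similarity of pattern over the 12 libraries was ranked by Pearson's r of log2 CPM against 9077 protein-coding genes, as a description. These libraries fall into 4 groups and share their depth and scaling, so r mostly follows the group means. Ms4a4c was most like Ifit3 (r = 0.9998), Rnf213 (0.9996) and Oasl1 (0.9995), and Trim30a (0.9988) and Lgals9 (0.9987) were among the genes most like Ms4a6b. Ifit3 and Oasl1 are interferon-stimulated effectors. Ms4a6d was most like the scavenger receptor Msr1 (0.9995), the IgG receptor Fcgr4 (0.9992) and Pcdh7 (0.9992). Ms4a6c came with Sema4a (0.9989), Rnf114 (0.9986) and Fgl2 (0.9986), and Ms4a4a with Cop1 (0.9994), Myadm (0.9989) and Ankrd50 (0.9988).

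The Tmem176 pair had other companions. Tmem176a was most like the purinergic receptor P2rx4 (0.9815), Ly86 (0.9735), which encodes the MD-1 partner of RP105, and the nucleotide receptor P2ry6 (0.9723). Tmem176b was most like Thoc3 (0.9801), the carbonyl reductase Cbr2 (0.9773) and Tuba1c (0.9638). Cbr2 ran from 8.67 CPM in WT UT to 19.6 in KO UT, 15.2 in WT LPS and 25.2 in KO LPS. Ms4a7 was most like Ppia (0.9898), which encodes cyclophilin A, then Aurkaip1 (0.9750) and Brk1 (0.9713).

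Among the 8 genes, r was at least 0.993 for every pair of the 5 Ms4a4 and Ms4a6 genes. It was 0.920 between Tmem176a and Tmem176b and 0.818 between Tmem176b and Ms4a7. Ms4a7 lay between -0.038 and 0.062 with the other MS4A genes.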

How the data were processed

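Total RNA of BMDMs was sequenced by the authors. Reads were checked with FastQC 0.11.9, aligned with HISAT2 2.1.0, sorted with SAMtools 1.17 and counted per gene with featureCounts 2.0.0, per the labels and the study's methods. The deposited values are raw counts for 48526 genes in 12 libraries, of which 48144 identifiers matched GENCODE vM21 (GRCm38). Library totals of 26154533 to 36423921 counts set the precision, and 3 counts correspond to 0.0824 to 0.115 CPM.

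Genes with enough counts (filterByExpr, minimum 10) left 15523 genes. These were fitted with edgeR 4.0.16 in R 4.3.3 by the quasi-likelihood test on all 12 libraries, with group means, TMM scaling and Benjamini-Hochberg adjustment over all genes tested. A gene was called at an adjusted p under 0.05 and a log2 fold change over 1 in size. SE is the size of the log2 fold change over the square root of F. Intervals are 95%. The procedure was also run on simulated counts with known changes in KO UT and no LPS effect. That run does not cover the LPS comparisons. Alternatives were RLE and upper-quartile scaling, DESeq2 1.42.0, other gene filters, the groups compared alone, no fold minimum, a replicate block and leaving out each library.

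The labels give each replicate number as a batch, so same-numbered libraries are paired by label. In the data their deviations from group means correlated at -0.0631 to 0.0373 over 18 pairs of libraries, with none of them over 0.1. Replicates of a group differed beyond sampling noise (chi-square per degree of freedom 3.73 or more in all 12 pairs).

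The 8 genes and all gene lists were chosen with earlier results of these data known. From a list, genes past both thresholds were named, at most 4 in each direction by size, and other list genes that the text names were added after their values were seen. Companion genes were the 3 protein-coding genes with a mean CPM of 5 or more and the highest r. 1 companion gene of Ms4a6b is not reported here.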

Additional observations from a re-analysis of the deposited data

Results flagged for a closer look

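For 5 listed genes the interaction term of the edgeR fit over all genes was past both thresholds. The lists were written with earlier results of these data known, so passing the thresholds is not independent evidence. The values are given as a description, as KO minus WT on the log2 scale. Ifi44 rose by 3.32 in WT and 4.66 in KO, a difference of 1.34 (SE 0.0936). For Irf7 the responses were 2.49 and 3.64, a difference of 1.15 (SE 0.078). Ifit2 gave 4.13 and 5.18, a difference of 1.05 (SE 0.1), and Oasl1 gave 4.85 and 5.86, a difference of 1.00 (SE 0.0806). Ms4a4b gave 1.02 and 2.06, a difference of 1.04 (SE 0.353) on 23 to 133 counts a library. For the 4 interferon-stimulated genes, every LPS library was above every untreated library of its genotype.

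Ms4a7 moved in opposite directions, by 0.36 in WT and -0.23 in KO, or 0.18 and -0.42 with upper-quartile scaling. All 3 WT LPS libraries were above all WT UT libraries, and all 3 KO LPS libraries were below all KO UT libraries. The difference of -0.59 (SE 0.0925) was not tested, because the gene was chosen with these results known.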

How the results depend on the processing

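None of the members' log2 fold changes changed sign under any alternative, and the tested members kept an adjusted p under 0.05 in all of them. The calls that changed were those of Tmem176a given above. Without a fold minimum, member calls went to 8 in KO UT against WT UT, 8 in KO LPS against KO UT and 8 in WT LPS against WT UT. In KO LPS against WT LPS and for the interaction, where the members carry no test, the number under the adjusted p alone was 6 and 6, from which nothing is read. Calls over all genes then went to 3700, 11295, 2223 and 2611, and to 11386 in WT LPS against WT UT. A mean CPM of at least 1 gave 160 calls in KO UT against WT UT (283 otherwise) and 117 in KO LPS against WT LPS (194 otherwise). Interaction calls over all genes (335 otherwise) were 186 on protein-coding genes alone and, leaving out 1 library at a time, 197 (without WT LPS replicate 3) to 519 (without WT LPS replicate 1). The cause of these shifts was not tested beyond the construction of each alternative. The replicate block, which uses the labelled pairing, gave 246 calls in KO UT against WT UT and changed no member call. Upper-quartile scaling moved the median of all genes in KO LPS against KO UT from -0.06 to -0.24. With 3 libraries a group and unstated animals, neither mouse-to-mouse variation nor genes under about 10 counts can be assessed.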
